A study of Mus musculus with 3 samples.

Results

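The genes described here are 52 genes of the cell cycle and of DNA replication, listed by name for their known roles in G1, S or G2/M. Of these, 50 had a row in the deposited table, as 66 RefSeq transcripts, out of 10761 named genes and 16383 transcripts in all. Cdk2 and Tyms had no row and were not analysed here. A mean of at least 1 RPKM (read counts scaled to transcript length and library size) over the libraries was needed for testing, and 32 of the 50 genes reached it with 1 transcript each. Another 9 lay below that level, and 9 were listed at 0 in every library.

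A dividing cell passes from G1, in which D-type cyclins with Cdk4 or Cdk6 and then E-type cyclins with Cdk2 release E2F transcription factors from the RB family, into S phase, in which the MCM helicase opens the DNA and polymerases held by PCNA copy it. In G2 and mitosis, Cdk1 with A- and B-type cyclins, the Aurora and Polo-like kinases and the spindle checkpoint condense, align and separate the chromosomes. Genes of S phase are classical targets of E2F, and genes of G2/M are classical targets of the DREAM and MuvB complexes with B-MYB and FOXM1. In a growing lung the epithelium and the mesenchyme around it divide, as do immature red cells in the blood of an embryo.

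The samples were whole mouse lungs of strain C57BL/6J/mixed background, with 1 library of genotype WT and 2 libraries of genotype Lin28a and Lin28b KO (DKO 1 and DKO 2). In the knockout, NKX2.1creERT, a Cre recombinase that acts in epithelium after tamoxifen, removed the loxP-flanked exon 2 of each gene, so the deletion was directed at the epithelium and not at the other cell types in the sample. Age and sex are not in the labels. They also do not say if WT carried floxed alleles or Cre, or if it received tamoxifen. Separate animals for DKO 1 and DKO 2 are not stated either, so the spread between these libraries may be technical. The p-values rest on that spread, mostly as pooled over all tested transcripts rather than that of each gene. Gene positions are those of RefSeq on GRCm38.p6. Low values implied about 48600000, 30800000 and 34100000 reads for WT, DKO 1 and DKO 2.

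Several facts of the whole libraries touch every value below. Of 15 fixed markers of lung epithelium, 13 had a row and 11 a value above 0, and their summed level came to 492 RPKM (WT), 114 (DKO 1) and 67.2 (DKO 2), whereas the defining markers Nkx2-1 and Sftpb were listed at 0 in all 3. Sftpc made up most of the WT sum, at 369 RPKM. The sum over 12 mesenchymal markers was 75.5, 111 and 80.6 RPKM in the same order. Erythroid markers (10 of 12 above 0) summed to 20202, 28715 and 102775 RPKM, markers of myeloid and other immune cells (11 of 14 above 0) to 84.4, 473 and 240, liver markers (7 of 8 above 0) to 7.55, 11.4 and 183, and heart muscle markers (5 of 8 above 0) to 29.2, 19.4 and 111. DKO 2 thus stood apart in erythroid, liver and heart muscle markers. The Y-linked gene Eif2s3y was at 0 in WT against 15.0 RPKM in DKO 1 and 5.07 in DKO 2, and Ddx3y, Kdm5d and Uty were likewise listed at 0 in WT and above 0 in both, so sex and genotype cannot be told apart. Lin28b itself had 0.449, 0.187 and 0.590 RPKM, so the library labelled DKO 2 was not below WT, a weak check in whole tissue when Cre acts in epithelium. These values were below 1 RPKM, a value for the whole transcript does not show exon 2 by itself, and Lin28a was not examined. The part of these differences between libraries in the cell cycle values was not tested. In whole tissue, fewer cells of a type and less RNA per cell cannot be told apart.

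As a group, the tested members had a median of the mean DKO difference near that of all tested transcripts (0.02 beside −0.01), with single genes on either side of WT. Cell cycle genes outside the members, described further below, had lower medians. Values were compared as log2(RPKM + 1), a scale that understates changes of low genes. The median difference from WT over the 32 tested genes was −0.16 in DKO 1 and 0.07 in DKO 2, beside −0.01 and 0.04 over all 2066 tested transcripts. In both DKO libraries 9 genes lay above WT (Cdk4, Mcm2, Mcm5, Pcna, Cdk1, Plk1, Bub1b, Cenpa and Nek2) and 11 below it, while 12 had WT between the DKO values. The background shares among all tested transcripts were 32.1% above, 31.0% below and 36.9% with WT at or between them. The members' 28.1%, 34.4% and 37.5% were near that background. Rescaled to TPM over the listed transcripts, which shifted the median of all tested transcripts from −0.01 to −0.22, 5 members were above WT in both and 16 below, beside 25.0% and 41.1% of all. Of the genes named above WT, Mcm5, Cdk1 and Cenpa then had WT between the DKO values and Pcna lay below WT in both. Before rescaling, counting error (95%, exact binomial) already spanned the WT level for some of them. In DKO 1 these were Mcm5 (1.03 of WT, 0.947 to 1.13) and Cenpa (1.05, 0.998 to 1.1). In DKO 2 it was Pcna (1.02, 0.997 to 1.05).

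None of the 32 genes passed limma (Benjamini-Hochberg adjusted p under 0.05), where the background was 0.0968%, or 2 of 2066 transcripts. Every member had an adjusted p of 0.999 in limma, and 0 had an unadjusted p under 0.05 (background 3.19%). No other tool was run. The rule of size asked that DKO 1 and DKO 2 each differ from WT by 2-fold or more on the log2(RPKM + 1) scale, with the same sign, and lie closer together than the nearer of them lay to WT. It was met by 0 members (background 3.19% higher and 1.5% lower). With 1 WT library, assumed to vary like the DKO libraries, standard errors ran from 0.65 to 0.95 log2 units, so that a 2-fold difference was smaller than 2 standard errors.

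**Figure D1:**
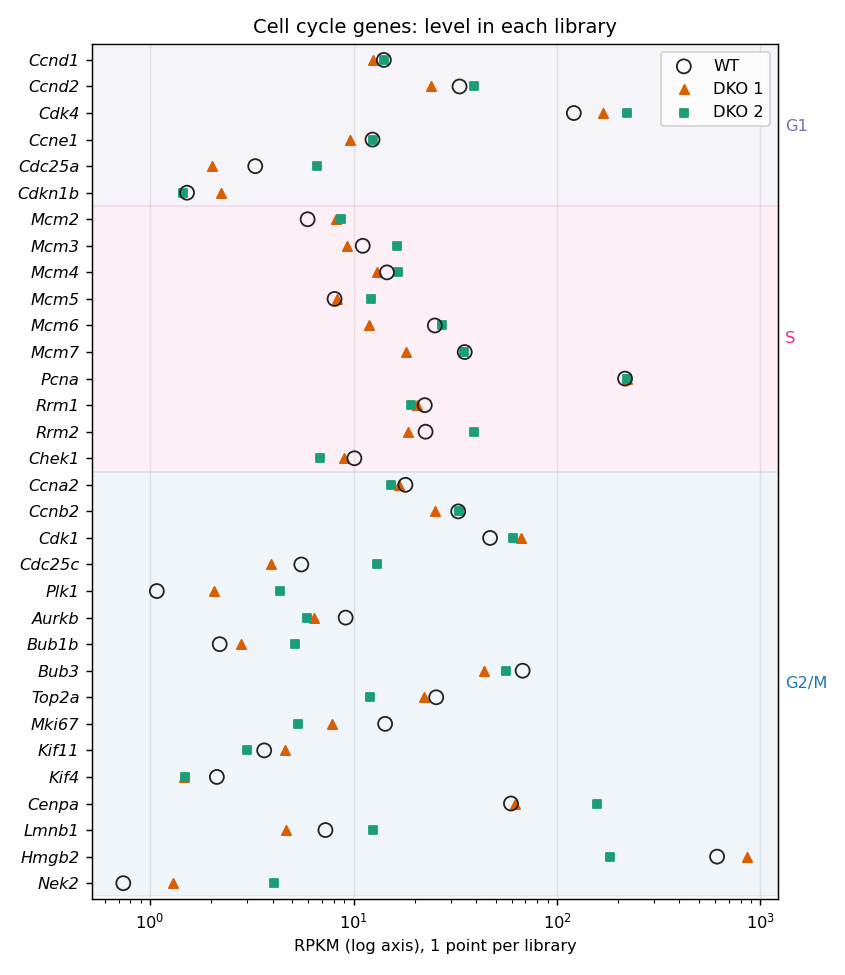
RPKM of each tested cell cycle gene (log axis) in WT (open circles), DKO 1 (triangles) and DKO 2 (squares), 1 point per library, grouped by G1, S and G2/M role. The levels span from below 1 RPKM for Nek2 in WT to 860 RPKM for Hmgb2 in DKO 1.

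Among the G1 genes, the 3 tested cyclins were below WT in DKO 1, with log2 differences of −0.16 to −0.45, and Cdk4 was the gene furthest above WT. Of 13 G1 genes 12 had a row and 6 were tested, of which 1 lay above WT in both DKO libraries, 2 below and 3 on either side. Their median difference was −0.25 in DKO 1 and 0.11 in DKO 2.

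Ccnd1, the cyclin D1 gene through which growth signals start the cycle (chromosome 7, 144929931 to 144939831), stood at 14.1 RPKM in WT against 12.5 in DKO 1 and 14.1 in DKO 2. Ccnd2, its close relative, had 33.2, 24.1 and 38.9 RPKM. Ccne1, encoding cyclin E1, which drives entry into S phase with Cdk2, had 12.4, 9.65 and 12.4 RPKM. In all 3 genes DKO 1 was the lowest library, and DKO 2 was within 0.5% of WT for Ccnd1 and Ccne1, so that their place below WT in both libraries rests on a margin that their counting error spans. The same held for Mcm7, described below. Cdk4, encoding the kinase partner of the D cyclins (chromosome 10, 127063535 to 127067288), stood at 121 RPKM in WT against 169 in DKO 1 and 222 in DKO 2. Both DKO libraries were above WT, by 1.40-fold and 1.84-fold (log2 difference 0.68, SE 0.80, limma adjusted p = 0.999). Cdk6, the alternative kinase partner, stood much lower and in the opposite order, with 0.449, 0.238 and 0.0829 RPKM, or about 251, 84 and 33 reads.

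Cdc25a, the phosphatase gene that activates Cdk2, stood at 3.29 RPKM in WT against 2.01 in DKO 1 and 6.59 in DKO 2. The DKO libraries thus lay on either side of WT and differed 3.27-fold from each other, more than either from WT. Among inhibitors, Cdkn1b, encoding p27, had 1.52, 2.24 and 1.45 RPKM. Cdkn1a, encoding p21, had 0.308 RPKM in WT for 1 transcript (about 14 reads) and was listed at 0 otherwise. Cdkn2a, the locus of p16 and p19Arf, was listed at 0 in every library, as were Ccnd3 and Ccne2. E2f1, encoding an activating E2F, had 0.135, 0.0476 and 0 RPKM. Of the 23 member genes that have 2 or more RefSeq transcripts, 9 were listed at 0 in every library and 8 reached the tested level, whereas of the 27 with 1 transcript none was listed at 0 and 24 were tested. A value of 0 here can therefore be a failed estimate.

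The S phase genes include 6 subunits of 1 ring, which allows their levels to be compared within a complex. Their promoters carry the letters of E2F sites more often than promoters at large. Promoter windows of 300 bases (250 before to 50 after the start of transcription, RefSeq, GRCm38.p6) were found for 42 of the 52 members, and not for Aurkb, Ccna2, Ccnd1, Ccnd2, Ccne2, Cdc25c, Foxm1, Kif20a, Lmnb1 and Mcm4. E2F letters were taken as the heptamer TTCCCGC, the heptamer TTGGCGC, the heptamer TTCGCGC or the heptamer TTGCCGC on either strand, and TTGGCGC can overlap the reverse complement of the heptamer TTCGCGC. They were present in 9 of 13 windows of S genes (69.2%), 3 of 13 of G1 genes (23.1%) and 2 of 21 of G2/M genes (9.52%), beside 9.57% of all 32851 windows. A match describes these letters and does not show that a factor binds. The 150 bases before the start of Mcm6 (chr1:128359706-128359855, minus strand), whose level differed most from WT in DKO 1, and of Pcna (chr2:132253181-132253330, minus strand), whose level hardly differed, are shown 5′ to 3′, with E2F letters and CCAAT boxes (CCAAT on either strand) in capitals.
Mcm6: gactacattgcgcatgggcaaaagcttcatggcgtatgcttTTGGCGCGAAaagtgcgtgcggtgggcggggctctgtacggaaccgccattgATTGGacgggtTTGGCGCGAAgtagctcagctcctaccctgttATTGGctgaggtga
Pcna: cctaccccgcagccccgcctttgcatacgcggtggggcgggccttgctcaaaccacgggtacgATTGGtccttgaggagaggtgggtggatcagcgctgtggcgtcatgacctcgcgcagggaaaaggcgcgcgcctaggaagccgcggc
The Mcm6 stretch holds overlapping E2F letters around positions 109 and 46 before the start and CCAAT boxes at 57 and 14. The Pcna stretch holds 1 CCAAT box, 87 bases before the start, and none of the E2F letters searched.

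Of 13 S genes 12 had a row and 10 were tested, with 3 above WT in both DKO libraries, 3 below and 4 on either side. Their median difference was −0.15 in DKO 1 and 0.14 in DKO 2. Pcna, encoding the sliding clamp of the replication fork (chromosome 2, 132249286 to 132253180), stood at 216 RPKM in WT against 222 in DKO 1 and 220 in DKO 2. The 3 libraries lay within 3% of each other, over about 15913, 10370 and 11423 reads, with DKO 1 at 1.03 of WT (interval 1 to 1.06, 95%, exact binomial, counting error only). Its difference of 0.04 turned to −0.04 with median scaling and to −0.19 with TPM.

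Mcm2 to Mcm7 encode the 6 subunits of the replicative helicase. Their RPKM in WT ran from 5.95 for Mcm2 to 35.2 for Mcm7. Mcm6 stood at 25.1 RPKM in WT against 11.9 in DKO 1 and 27.1 in DKO 2. Mcm7 had 35.2, 18.1 and 34.9 RPKM. Both were low in DKO 1 alone, at 0.475 of WT for Mcm6 (95% exact binomial interval 0.443 to 0.509) and 0.513 for Mcm7 (0.485 to 0.542), and in DKO 2 they were at 1.08 and 0.991 of WT. The other subunits were closer to WT in DKO 1, standing between 0.834 of WT (Mcm3) and 1.38 (Mcm2). Mcm2 had 5.95, 8.23 and 8.65 RPKM. Mcm3 had 11.1, 9.25 and 16.3 RPKM. Mcm4 had 14.6, 13.0 and 16.6 RPKM, and Mcm5 8.07, 8.34 and 12.2. In DKO 2 the ratios to WT of all 6 lay between 0.991 and 1.52. RefSeq lists 2 transcripts of Mcm5, 2 of Mcm6 and 3 of Mcm7, and 1 of each has a row, so how reads were divided among them is not known. The same holds for Ccnd1, Cdk4 and Bub3, with 2 RefSeq transcripts each.

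Of the genes of nucleotide supply, Rrm2 and Rrm1 were measured. Rrm2, the S phase subunit of ribonucleotide reductase, stood at 22.6 RPKM in WT against 18.5 in DKO 1 and 39.0 in DKO 2. Rrm1, the large subunit, had 22.4, 20.5 and 19.1 RPKM. The subunits were at nearly equal levels in WT and DKO 1, and Rrm2 alone was higher in DKO 2, at 1.73 of WT. Chek1, encoding the kinase of the replication checkpoint, was below WT in both, with 10.1, 8.96 and 6.83 RPKM. Cdc6, which loads the helicase, and Tk1, thymidine kinase, were listed at 0 throughout. On the log2(RPKM + 1) scale no S gene was 2-fold from WT in DKO 2 (background 26.9%), and Mcm6, lower, was the only member that was so in DKO 1 (background 13.6%, with 5.52% lower and 8.03% higher).

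**Figure D2:**
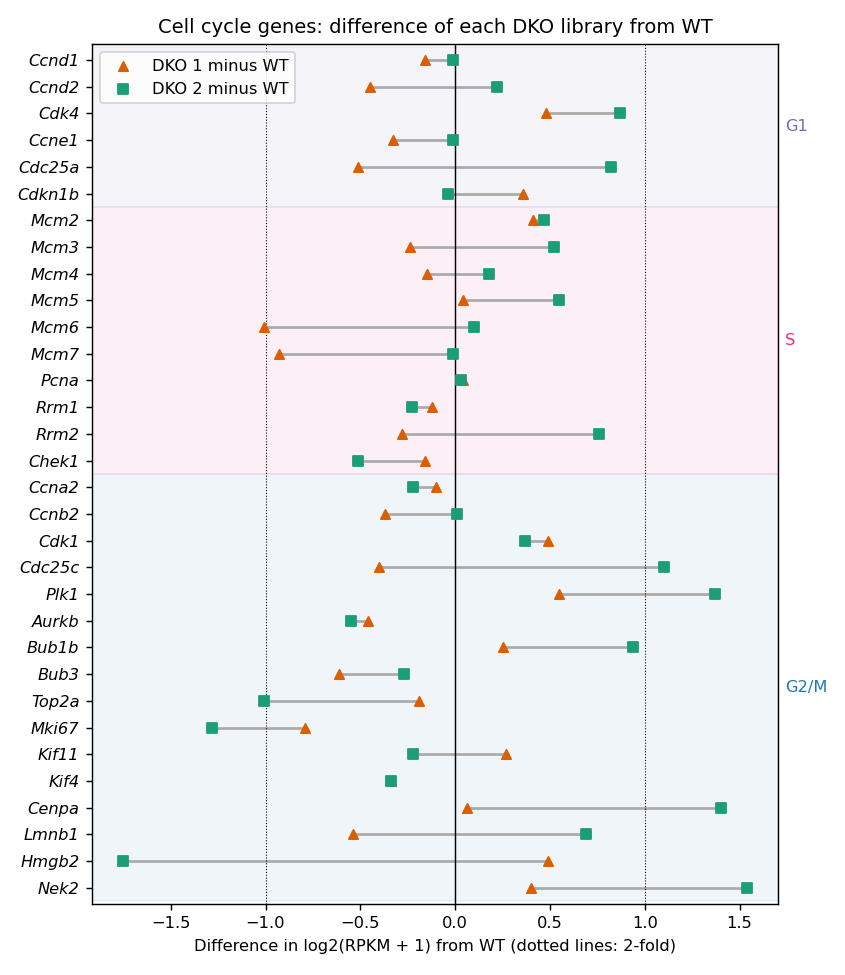
Difference from WT in log2(RPKM + 1) of DKO 1 (triangles) and DKO 2 (squares) for each tested cell cycle gene, with a line joining the libraries and dotted lines at 2-fold. Mcm6 and Mcm7 lie far below 0 in DKO 1 only, Mki67 lies below 0 in both libraries, and Hmgb2 has the longest line, from 0.49 in DKO 1 to −1.75 in DKO 2.

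Of the roles, G2/M had the widest range of mean DKO differences, from −1.03 to 0.97, in opposite directions for different genes. The median absolute difference of its genes was 0.47, beside 0.44 over all tested transcripts. In DKO 1 alone, the members furthest from WT were the S genes Mcm6 and Mcm7. Promoters of the G2/M genes carry CHR and CCAAT letters, the elements through which the DREAM complex and NF-Y are known to act. CHR letters, taken as TTTGAA or the variant TTCGAA on either strand (the variant reads the same on both), were present in 18 of 21 windows of G2/M genes (85.7%), 2 of 13 of S genes (15.4%) and 0 of 13 of G1 genes, beside 19.2% of all windows. CCAAT was present in 85.7%, 69.2% and 38.5% of the windows of the G2/M, S and G1 genes, beside 37.4% of all. The 150 bases before the start are shown 5′ to 3′ for Mki67 (chr7:135716380-135716529, minus strand) and Top2a (chr11:99024190-99024339, minus strand), which lay below WT in both DKO libraries, and for Plk1 (chr7:122159285-122159434, plus strand) and Nek2 (chr1:191821323-191821472, plus strand), which lay above it. Capitals mark CHR, E2F and CCAAT letters. The start is the transcript start that the RefSeq promoter table uses. It lies inside the outer bounds of the gene for Mki67, Top2a and Nek2, so that 71, 10 and 24 of the 150 bases shown fall within those bounds.
Mki67: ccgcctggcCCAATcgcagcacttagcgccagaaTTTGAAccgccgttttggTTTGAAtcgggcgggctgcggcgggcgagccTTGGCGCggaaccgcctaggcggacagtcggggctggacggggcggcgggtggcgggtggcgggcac
Top2a: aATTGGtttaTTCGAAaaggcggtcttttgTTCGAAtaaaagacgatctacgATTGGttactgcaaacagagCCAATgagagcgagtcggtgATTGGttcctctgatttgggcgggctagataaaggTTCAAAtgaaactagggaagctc
Plk1: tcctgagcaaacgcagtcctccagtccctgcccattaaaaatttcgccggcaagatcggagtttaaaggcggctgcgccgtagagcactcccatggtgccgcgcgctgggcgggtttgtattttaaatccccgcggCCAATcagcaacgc
Nek2: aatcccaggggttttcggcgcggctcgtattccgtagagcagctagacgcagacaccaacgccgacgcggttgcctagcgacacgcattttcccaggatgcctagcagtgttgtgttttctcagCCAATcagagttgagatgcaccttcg
Mki67 holds CHR letters at 116 and 98 bases before that start and E2F letters at 67, the latter within the gene's outer bounds. Top2a holds CHR letters at 140, 120 and 23 bases before the start, among several CCAAT boxes. Plk1 holds a CCAAT box 14 bases before the start and its CHR letters 31 bases after it, outside the stretch shown. Nek2 holds CCAAT boxes at 26 bases before and 8 after the start and no CHR letters in this window.

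Of 26 G2/M genes all had a row and 16 were tested, with 5 above WT in both DKO libraries, 6 below and 5 on either side. Their median difference was −0.15 in DKO 1 and −0.10 in DKO 2. On the log2(RPKM + 1) scale, the members at least 2-fold from WT in DKO 2 were 7 of 32 (Cdc25c, Plk1, Cenpa and Nek2 higher, Top2a, Mki67 and Hmgb2 lower), all of them G2/M genes, beside 26.9% of all tested transcripts (15.1% higher and 11.8% lower). As ratios of RPKM, Bub1b (2.34) and the G1 gene Cdc25a (2.00) also reached that size in DKO 2.

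Among the genes below WT, Mki67, which encodes the proliferation marker Ki-67 of the mitotic chromosome surface (chromosome 7, 135689784 to 135716450), stood at 14.3 RPKM in WT against 7.87 in DKO 1 and 5.32 in DKO 2. Both DKO libraries were below WT, at 0.549 (95% exact binomial interval 0.524 to 0.575) and 0.371 (0.352 to 0.391) of it, which was the lowest mean difference among the members (log2 difference −1.03, SE 0.68, limma adjusted p = 0.999). Top2a, the topoisomerase that untangles replicated DNA, had 25.5, 22.3 and 12.1 RPKM. It was close to WT in DKO 1, at 0.872, and at 0.475 of it in DKO 2. Aurkb, the kinase of the chromosomal passenger complex, was below WT by nearly the same amount in both, with 9.15, 6.40 and 5.93 RPKM. Birc5, encoding survivin of the same complex, had 0.475, 0.353 and 0.762 RPKM and was too low for testing. Its other RefSeq transcript was listed at 0 throughout, so this level is uncertain. Kif4, a chromosome-bound kinesin, had 2.13, 1.47 and 1.48 RPKM, and Bub3, of the spindle checkpoint, 67.8, 44.0 and 56.2.

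Over all tested transcripts, length moved with the difference in DKO 2. The median difference of DKO 2 from WT was 0.18 over 814 tested transcripts under 2000 bases, 0.05 over 757 of 2000 to 4000 bases and −0.16 over 478 over 4000 bases, whereas in DKO 1 it was 0.02, −0.06 and −0.03. Of the 6 members over 4000 bases, among them Mki67, at 10061 bases the longest, and Top2a, at 5221 bases, 4 were below WT in DKO 2, near the 58.2% of all tested transcripts of that length. The members' medians in DKO 2 were 0.03 under 2000 bases, 0.17 from 2000 to 4000 and −0.28 above. The part of length in these values was not tested.

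Among the genes above WT, Plk1, the Polo-like kinase that drives entry into mitosis (chromosome 7, 122159435 to 122169884), stood at 1.08 RPKM in WT against 2.06 in DKO 1 and 4.37 in DKO 2. Both DKO libraries were above WT, by 1.90-fold (95% exact binomial interval 1.47 to 2.44) and 4.04-fold (3.25 to 5.02), over about 116, 139 and 328 reads (log2 difference 0.96, SE 0.71, limma adjusted p = 0.999). Nek2, a centrosomal kinase (chromosome 1, 191821449 to 191833049), had 0.739, 1.29 and 4.07 RPKM, over about 116, 129 and 448 reads. It followed the same order, at 1.75-fold and 5.51-fold of WT, with a log2 difference of 0.97 (SE 0.77, limma adjusted p = 0.999). Nek2 was below 1 RPKM in WT and reached the level for testing only through the DKO libraries, so the filter favours this direction. Bub1b, encoding the checkpoint kinase BubR1, had 2.20, 2.80 and 5.14 RPKM. In these 3 genes DKO 2 was higher than DKO 1, by 2.12-fold for Plk1, 3.14-fold for Nek2 and 1.84-fold for Bub1b. Foxm1 (0.555, 0.836 and 0.971 RPKM) and Mybl2 (0.372, 0.722 and 0.648 RPKM) encode regulators of G2/M genes at large. Both were above WT in both libraries but below the level for testing. Of all transcripts above 0 in any library, 24.3% were above WT in both and 30.6% below. Other members below the level for testing, namely Cdk6, E2f1, Cdkn1a, Kif20a and Espl1, lay below WT in both. A link of Foxm1 and Mybl2 to Plk1, Nek2 and Bub1b was not tested, and 6 tested G2/M genes lay below WT in both.

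The mitotic cyclins had small mean DKO differences, at −0.16 for Ccna2 and −0.18 for Ccnb2, and that of their kinase gene Cdk1 was 0.43. Cdk1, the kinase that drives mitosis, stood at 46.9 RPKM in WT against 66.4 in DKO 1 and 61.0 in DKO 2, above WT in both, although with TPM its difference in DKO 2 was −0.00088. Ccna2, the cyclin A2 gene, had 18.0, 16.7 and 15.3 RPKM, and Ccnb2, the cyclin B2 gene, 32.7, 25.1 and 33.0. Ccna2 was slightly below WT in both DKO libraries and Ccnb2 in DKO 1 only. Cdc25c, a phosphatase that activates Cdk1, had 5.54, 3.95 and 13.0 RPKM, so that the DKO libraries lay on either side of WT, as they did for the kinesin gene Kif11 (3.64, 4.59 and 2.98 RPKM).

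Hmgb2, a chromatin protein abundant in dividing cells (chromosome 8, 57511843 to 57515999), stood at 612 RPKM in WT against 860 in DKO 1 and 182 in DKO 2. It was above WT in DKO 1, at 1.40, and at 0.297 of it in DKO 2, which was 0.211 of DKO 1. Cenpa, the histone variant of centromeres, had 59.4, 62.2 and 158 RPKM, so DKO 1 matched WT while DKO 2 was 2.66-fold above it. Lmnb1, encoding lamin B1, had 7.28, 4.68 and 12.4 RPKM. RefSeq lists 4 transcripts of Hmgb2 and 5 of Cenpa, and copies of Hmgb genes elsewhere in the genome may share reads, so these levels are uncertain. Espl1, encoding separase, was too low for testing (0.647, 0.393 and 0.626 RPKM), Kif20a and Ttk were lower still, and Aurka, Bub1, Cdc25b and Kif2c were listed at 0 throughout.

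Over all roles, the DKO libraries lay further apart from each other than their mean lay from WT for 21 of 32 members, beside 60.5% of all tested transcripts. Hmgb2, Cdc25c, Cdc25a, Nek2, Lmnb1 and Cenpa differed more than 2.5-fold between DKO 1 and DKO 2. The share of all tested transcripts past that size was not counted, so it is not read as a trait of the members. DKO 2 was the library with the high sums of erythroid, liver and heart muscle markers given above, and a link to these genes was not tested.

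**Figure D3:**
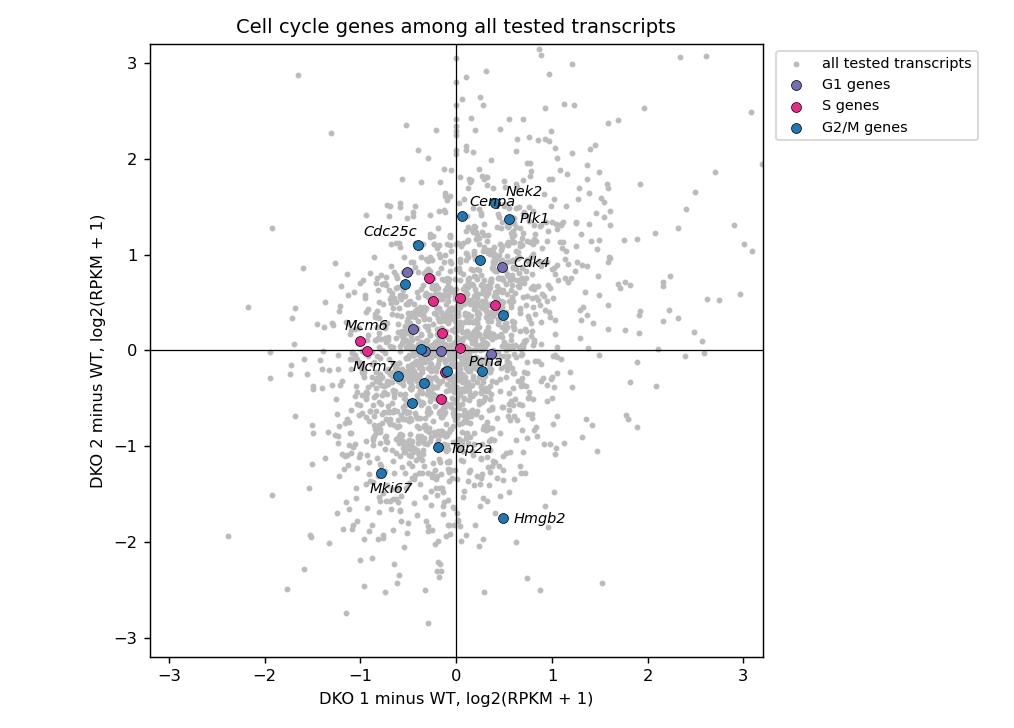
Difference from WT in log2(RPKM + 1) of DKO 1 (horizontal axis) and DKO 2 (vertical axis) for all tested transcripts (grey) and for the G1, S and G2/M genes (coloured), with 33 of 2066 transcripts outside the axes. Both axes share the WT library. The cell cycle genes lie within the grey cloud, with Mki67 lower left, Plk1 and Nek2 upper right and Hmgb2 lower right.

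Other genes of the cycle, 199 in 6 lists outside the members, were read from the same fit. Of these, 111 had a row, and 52 transcripts were tested. None passed limma (0 with an unadjusted p under 0.05, background 3.19%), 9 were above WT in both DKO libraries and 24 below (background 32.1% and 31.0%). Their median difference was −0.18 in DKO 1 and −0.36 in DKO 2. These genes thus lay below WT more often than the members did, and the difference between the sets was not tested.

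In the list of replication fork, polymerase and nucleotide genes, 2 of 17 tested transcripts were above WT in both and 7 below, with a median of −0.26. Dtymk, the thymidylate kinase gene, showed 90.3, 53.1 and 66.4 RPKM in the order WT, DKO 1, DKO 2. Prim1, the primase subunit that makes the RNA primer, had 38.2, 40.2 and 18.0 RPKM. Pola2, of the polymerase alpha complex, had 17.8, 20.3 and 51.9 RPKM for its more abundant transcript. Its other tested transcript had 3.66, 4.67 and 3.97 RPKM, so the high value in DKO 2 was that of 1 transcript. Of these 3, Dtymk alone was below WT in both libraries and Pola2 alone above it. The 2 transcripts counted above WT in this list were both of Pola2, so they stand for 1 gene, here and in the count over all lists. In the licensing list of 3 tested genes the median was −0.21, with Orc5 at 4.64, 8.74 and 8.79 RPKM, Orc4 at 4.15, 2.26 and 0.398 and Orc1 at 2.20, 2.73 and 1.06. Subunits of the origin recognition complex therefore went in different directions. In the G1 and E2F/RB list of 5 the median was −0.25, with 0 above WT in both and 2 below. Mnat1, of the CDK-activating kinase, had 28.5, 24.6 and 9.31 RPKM, E2f5 11.2, 15.1 and 10.7, and the inhibitor gene Cdkn2d 12.8, 13.4 and 5.94.

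In the spindle, kinetochore and checkpoint list, 3 of 13 were above WT in both and 7 below, with a median of −0.37. Cenpw, a histone-fold protein of the kinetochore, had 786, 1326 and 1009 RPKM. Hmgb1, the relative of Hmgb2, stood at 1077 RPKM in WT against 671 in DKO 1 and 341 in DKO 2. Tuba1b, an alpha tubulin gene, had 464, 227 and 487 RPKM. Hmgb1 was thus low in both DKO libraries, unlike Hmgb2, and Tuba1b in DKO 1 only. In the cohesin and condensin list of 5, which hold sister chromatids together and compact them, 0 were above WT in both and 4 below, with medians of −0.12 (DKO 1) and −0.64 (DKO 2). Rad21, the cohesin ring subunit, had 20.2, 19.8 and 12.5 RPKM, Smc2 of condensin 17.5, 17.0 and 4.94, and Smc3 of cohesin 11.2, 9.64 and 5.25. In DKO 1 these were close to WT, and the lower values were those of DKO 2.

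The list of p53 targets and partners was split, with 3 of 9 above WT in both, 3 below and a median of −0.04. Not all of its genes restrain the cycle, so these counts give no direction for such restraint. Mdm4, an inhibitor of p53, stood at 2.82 RPKM in WT against 0.719 in DKO 1 and 0.276 in DKO 2, and it met the 2-fold rule (1 of 52 transcripts, background 1.5% lower, limma adjusted p = 0.999). It reached the level for testing only through WT, so the filter favours this direction. Bax, a cell death effector, had 8.27, 9.15 and 31.1 RPKM, Btg1 9.83, 9.30 and 13.6, and Phlda3 6.86, 11.2 and 3.77. Bax stood out in DKO 2 only, above WT. Gadd45a (4.25, 2.58 and 0.263 RPKM) and Btg2 (1.93, 2.41 and 0.180 RPKM) went the other way in DKO 2, with log2 differences of −2.05 and −1.31 beside 1.79 for Bax.

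**Figure D4:**
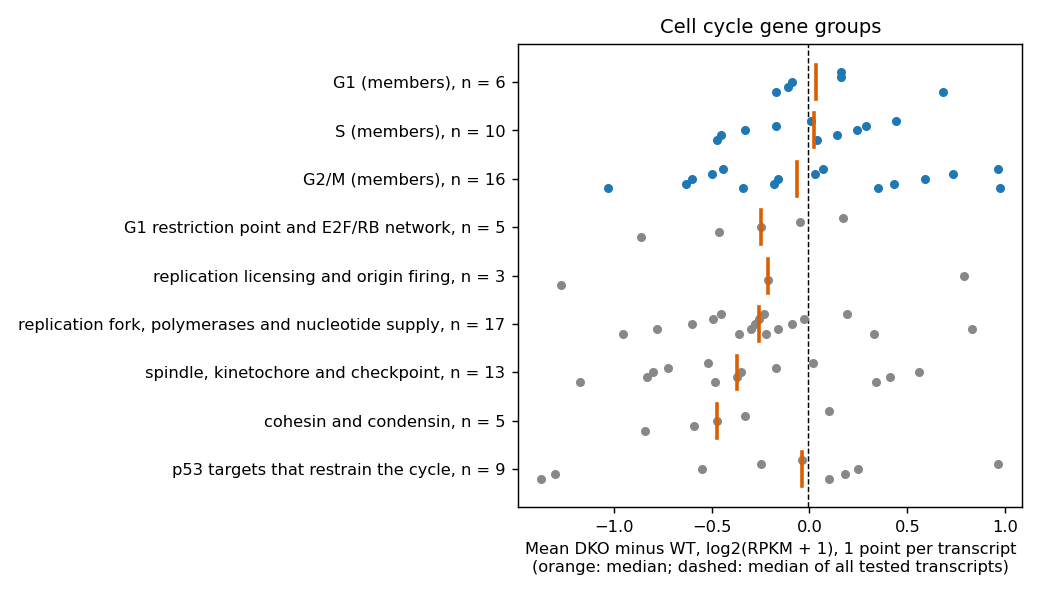
Mean difference of the DKO libraries from WT in log2(RPKM + 1) for each tested transcript of the G1, S and G2/M genes (blue) and of the 6 other cell cycle lists (grey), with the median of each group in orange and that of all tested transcripts dashed. The medians of the members lie at 0.04, 0.02 and −0.07, near the dashed line, and those of 5 other lists lie between −0.47 and −0.21.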

How the data were processed

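RNA-seq of 3 libraries of whole lung was used. Trizol extraction and the SMARTer Ultra Low Input kit are named per the labels' protocols. Per the submitters' processing notes, cutadapt, TopHat2, HTSeq, edgeR and build mm10 were used, and neither versions nor the annotation are stated. The authors deposited RPKM for 16383 RefSeq transcripts. Whether strand was used is not given, so overlapping genes are uncertain.

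Transcripts were named from RefSeq (GRCm38.p6, 16151) and GENCODE of the same build (77), and 155 stayed unnamed. A total of 11138 (68.0%) were listed at 0 in every library. RPKM times annotated transcript length gave the worth of 1 read from low values, of which 33.7%, 33.7% and 35.4% in WT, DKO 1 and DKO 2 lay within 0.05 of a whole read, so read numbers are approximate and intervals (95%, exact binomial on the reads of 2 libraries) cover counting error only. PCR copies are not separate molecules.

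The 2066 transcripts whose mean reached 1 RPKM were analysed as log2(RPKM + 1) with limma 3.58.1 in R 4.3.3 (mean-variance trend, two-sided, Benjamini-Hochberg adjustment over all of them). The residual degree of freedom, 1, came from the DKO libraries, and the prior had 11.2. The procedure was tested on simulated data. Members with a mean of at least 1 RPKM are given by library, and lower ones by value above 0.5 RPKM or by range. Other lists are given by their 3 most abundant transcripts and those past the 2-fold rule. Cdk6, E2f1, Cdkn1a, Lin28b, Gadd45a, Btg2, the less abundant Pola2 transcript and single erythroid and immune markers were added after their values were seen. The members and lists were chosen with earlier results of these data known. Length classes were chosen after the data were examined. Alternatives were other pseudocounts, filters and scalings, other moderation, a 1.5-fold rule and leaving out each DKO library.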

Additional observations from a re-analysis of the deposited data

How the results depend on the processing

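The count of 0 members past limma held under 11 alternative settings. Adjusted p of the 32 members ran from 0.922 to 1, with no lower value than 0.773 for any member once low transcripts were kept ("no filter" kept those above 0 in any library). With the 1.5-fold rule 1 member was lower (other lists: 1 higher). TPM left 5 members above WT in both and gave medians of −0.20 (members), −0.20 (S), −0.28 (G2/M) and −0.22 (all transcripts). The G2/M median was 0.04 with no filter, −0.18 at a mean of at least 5 RPKM, −0.14 with median scaling, −0.15 with quantile normalization, −0.15 with TPM after removal of haemoglobin genes and 0.03 over genes with 1 RefSeq transcript (these last 2 settings were chosen after seeing the data). The median of all transcripts was −0.09 with median scaling, −0.06 with quantile normalization and −0.09 with TPM without haemoglobin. Of the other lists, 0 transcripts were lower by the 2-fold rule with a pseudocount of 5, a filter at 5 RPKM or genes with 1 transcript.

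Differences near 0 changed sign. With median scaling, quantile normalization, TPM and TPM without haemoglobin these were, in that order, Mcm4 (−0.06, −0.10, −0.21 and −0.07), Kif11 (−0.05, −0.06, −0.17 and −0.05), Pcna (−0.04, −0.05, −0.19 and −0.05) and Lmnb1 (−0.003, −0.0033, −0.15 and −0.01). Mcm3 changed with quantile normalization (−0.00045) and TPM (−0.07), and Cdc25a with TPM (−0.05).

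Without DKO replicate 1 or 2, 1 library remained against 1 and no test was possible. Members then 2-fold higher numbered 0 to 4 and lower 1 to 3, those above WT 12 to 18 and below it 14 to 20, and other lists 0 to 2 higher and 2 to 12 lower. Medians ran from −0.16 to 0.07 (members), −0.25 to 0.11 (G1), −0.15 to 0.14 (S), −0.15 to −0.10 (G2/M) and −0.01 to 0.04 (all transcripts). No paired analysis was possible because the groups share fewer than 2 replicate numbers.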
